A study of Mus musculus with 10 samples.

Results

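The connexin genes described here encode the subunits of gap junctions. They were taken as the named family members for which a probe of the array carried exactly 1 gene symbol, under current symbols, so that Gjc1 and Gjd2 stand for the older names Gja7 and Gja9. The rule gave 8 genes (Gja1, Gja4, Gja5, Gjb1, Gjb2, Gjb5, Gjc1 and Gjd2) of 18069 genes named by the array, and each had exactly 1 probe.

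Total RNA of 5 groups was hybridised to 1-colour CodeLink Mouse Whole Genome arrays, with 2 arrays in each group. Dox(+) EBs were embryoid bodies of tet-pdx1/ngn3 ES cells, an Ainv18 derivative, harvested on day 13 after doxycycline (Dox, 1 µg/ml) had been added from day 4 to switch on a bicistronic Pdx1-IRES-Ngn3 cassette. Dox(−) EBs carried the same cassette, were grown in the same activin A and BMP4 protocol without Dox and were also harvested on day 13. The other groups were βTC6 cells, a mouse insulinoma line, whole islets, which the study's text calls adult although a heading in its supplement gives them the embryonic age of the pancreas samples, and whole pancreas of E15.5 embryos. Another entry of the labels names activated Notch4 as the induced gene of both EB groups, which goes against the cassette given elsewhere in the labels and the methods. The labels number the arrays as biological replicates without saying whether they came from separate cultures or animals, so the p-values below measure only the spread between these samples. Islets and E15.5 pancreas were whole tissue and hold several cell types.

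Across the arrays, 66.0% to 74.3% of the 34967 probes were above background, and the 2 arrays of a group correlated at 0.989 to 0.996. Arrays of the 5 groups held consecutive slide positions, group by group, so slide and group cannot be told apart. Neither of the genes in the cassette registered the induction. No EB array of the 4 had Pdx1 above background, and the Neurog3 (Ngn3) probe read 0.447 and 0.557 array medians in Dox(+) EBs, against 0.458 and 0.521 in Dox(−) EBs. Where these probes lie relative to the cassette was not tested, and Notch4 could be read on only 1 Dox(+) array, so no comparison is made for it. All 13 marker genes of endocrine cells were above background on both arrays of E15.5 pancreas, βTC6 cells and Dox(+) EBs. In islets 12 were, and Gcg was missing on 1 array. In Dox(−) EBs 7 were above background on both arrays and 5 at background on both. All 13 were called higher in Dox(+) than in Dox(−) EBs.

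Connexins assemble in the cell membrane as hexameric hemichannels, and hemichannels of neighbouring cells dock into gap junctions that pass ions and small metabolites. In islets, gap junctions couple beta cells so that their calcium oscillations and insulin release run together, and exocrine acini, liver, heart, vessels and many embryonic tissues use other members of the family. Gjd2 encodes the main connexin of beta cells and also forms electrical synapses between neurons. Gjc1 encodes a connexin of the early embryo, its heart and its smooth muscle, and Gja1 encodes the most widespread connexin, found in heart muscle, fibroblasts and many other cells. Gjb2 and Gjb1 belong to epithelia and are both used in liver and in pancreatic acini, and Gjb5 is known from skin and trophoblast in the mouse. Gja4 and Gja5 are connexins of blood vessels, and Gja5 also serves the atria and the conduction system of the heart.

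Promoter sequences are shown for Gjd2 and Gjb2, which were called in opposite directions with Dox, and for Gja1, which was not called. Each is the 250 bases before the start site from RefSeq (GRCm38.p6), at chr2:114013620-114013869 on the minus strand for Gjd2, chr14:57104703-57104952 on the minus strand for Gjb2 and chr10:56377050-56377299 on the plus strand for Gja1. Capitals mark the GC box (GGGCGG) and the E-box (CANNTG, the class of sequence that basic helix-loop-helix factors such as Ngn3 bind), both searched on either strand.
Gjd2: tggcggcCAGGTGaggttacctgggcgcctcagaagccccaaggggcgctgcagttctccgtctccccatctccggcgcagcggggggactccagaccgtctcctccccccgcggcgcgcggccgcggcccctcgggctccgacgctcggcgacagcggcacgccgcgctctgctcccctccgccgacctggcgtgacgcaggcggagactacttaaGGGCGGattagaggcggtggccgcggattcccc
Gjb2: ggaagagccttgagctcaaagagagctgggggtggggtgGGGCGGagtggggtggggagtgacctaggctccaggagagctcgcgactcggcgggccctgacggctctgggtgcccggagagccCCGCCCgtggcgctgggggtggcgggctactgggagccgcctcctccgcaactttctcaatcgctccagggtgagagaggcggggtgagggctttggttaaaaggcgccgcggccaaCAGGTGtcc
Gja1: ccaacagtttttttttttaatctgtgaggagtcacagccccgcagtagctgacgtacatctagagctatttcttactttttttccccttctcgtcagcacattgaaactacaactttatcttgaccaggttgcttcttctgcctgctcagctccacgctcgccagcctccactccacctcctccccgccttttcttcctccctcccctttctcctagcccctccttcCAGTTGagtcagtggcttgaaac
The Gjd2 promoter held 1 GC box and 1 E-box, the Gjb2 promoter 2 GC boxes and 1 E-box, and the Gja1 promoter 1 E-box that overlaps an AP-1 motif (TGANTCA) in its last letters. Of 32851 promoters of the same length, 32.7% held a GC box, 66.2% an E-box and 6.75% the AP-1 motif, so the E-box was present in most of them. The Gjd2 promoter was 74.0% G and C with 33 CpG dinucleotides, the Gjb2 promoter 69.2% with 18, and the Gja1 promoter 50.0% with 6, against medians of 52.4% and 6.0 over all promoters. RefSeq promoters matched 7 of the 8 genes, and Gjc1 had no entry in the table used. These matches describe letters only, and nothing about binding is drawn from them.

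Levels below are scaled intensities in units of the array median, so a level of 1 is that of the middle probe of the array, and a spot "at background" was marked so by the scanner software. Differences are log2 values, the first group named minus the second, from limma on levels floored at 0.27, with the standard error (SE) and a p-value adjusted over all probes tested in that comparison. A gene was called higher or lower where the adjusted p was under 0.05. Levels of different genes come from different probes and are not set against each other.

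Gjd2 had the largest difference with Dox of the 7 genes tested. It read 3.77 and 2.63 in Dox(+) EBs, against 0.0846 and 0.0233, both at background, in Dox(−) EBs. βTC6 cells had 0.937 and 1.10, islets 6.67 and 5.90, and E15.5 pancreas 0.415 and 0.374. No group overlapped another. Gjd2 was at least 11.7-fold higher in Dox(+) than in Dox(−) EBs, a bound set by the background of the Dox(−) arrays (log2 difference 3.54, SE 0.18, adjusted p = 9.24e-08). In decreasing order its level ran islets, Dox(+) EBs, βTC6 cells, E15.5 pancreas and Dox(−) EBs, and each group passed the test against the next. Dox(+) EBs were 1.99-fold lower than islets (adjusted p = 0.000541) and 3.10-fold higher than βTC6 cells (adjusted p = 1.51e-05). βTC6 cells were 2.58-fold higher than E15.5 pancreas (adjusted p = 5.19e-05), and Dox(−) EBs were at least 1.46-fold lower than E15.5 pancreas (adjusted p = 0.0232). This last call was lost without either Dox(−) array (adjusted p = 0.0761 and 0.0747) or either E15.5 array (adjusted p = 0.124 and 0.052). It was also lost without the filter on background (adjusted p = 0.0699). A floor of 1, above the levels of E15.5 pancreas and Dox(−) EBs, ended it too. That floor also ended the call of βTC6 cells over each of these groups. The log2 differences were 0.07 in βTC6 cells against E15.5 pancreas and -0.07 in Dox(−) EBs against βTC6 cells. The study placed Gjd2, Gjc1 and Gja1 on a gene list of its own that it chose from these samples, so their direction with Dox is not independent evidence.

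Gjc1 was high in both EB groups and low in βTC6 cells and islets. Its level was 11.9 and 9.81 in Dox(+) EBs, against 7.98 and 8.42 in Dox(−) EBs. βTC6 cells had 0.409 and 0.524, islets 1.19 and 1.19, and E15.5 pancreas 5.10 and 5.40. Both Dox(+) arrays lay above both Dox(−) arrays, and every other pair of groups was separated as well. With Dox the gene was 1.32-fold higher (log2 difference 0.40, SE 0.14, adjusted p = 0.0399). That call held in 3 of 10 fits that each left out 1 array, with adjusted p between 0.0125 and 0.269, and a log2 difference of 0.26 without the first Dox(+) array (not called) and 0.54 without the second (adjusted p = 0.0331). It was also lost without the first or second Dox(−) array (adjusted p = 0.161 and 0.0938), either islet array (0.0592 each) or the first or second E15.5 array (0.0632 and 0.0634). The differences between tissues were larger: Dox(+) EBs were 23.4-fold higher than βTC6 cells (adjusted p = 1.17e-09), 9.08-fold higher than islets (adjusted p = 1.1e-08) and 2.06-fold higher than E15.5 pancreas (adjusted p = 8.63e-05). Islets were 4.41-fold lower than E15.5 pancreas (adjusted p = 2.42e-07), and βTC6 cells were 2.57-fold lower than islets (adjusted p = 7.78e-06, but 0.0978 with a floor of 1, which lies above both βTC6 levels).

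**Figure D1:**
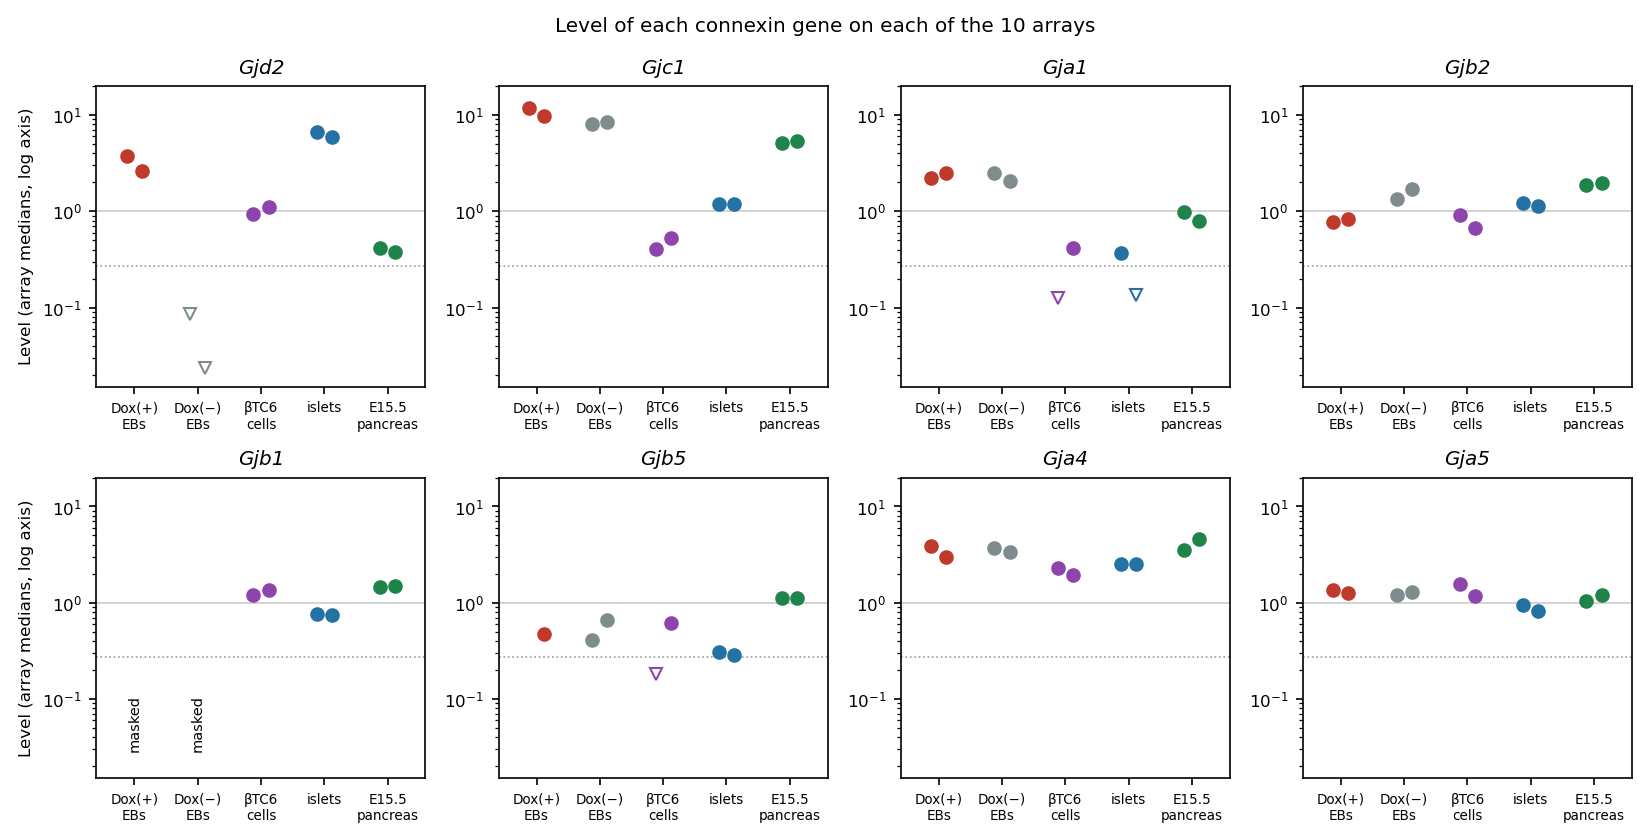
Level of each of the 8 connexin genes on each array (log axis, units of the array median, grey line at 1, dotted line at the floor of 0.27) in the 5 groups. Filled circles are spots above background and open triangles spots at background. Gjd2 is at background in Dox(−) EBs only, and Gjc1 is highest in both EB groups.

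Gja1 did not separate the EB groups. It read 2.19 and 2.48 in Dox(+) EBs, against 2.52 and 2.09 in Dox(−) EBs, and the groups overlapped (log2 difference 0.02, SE 0.23, adjusted p = 0.996). βTC6 cells had 0.127, at background, and 0.414, islets 0.134, at background, and 0.373, and E15.5 pancreas 0.973 and 0.792. Both EB groups were higher than the other 3. Dox(+) EBs were 6.96-fold higher than βTC6 cells (adjusted p = 1.75e-06), 7.34-fold higher than islets (adjusted p = 1.26e-06) and 2.65-fold higher than E15.5 pancreas (adjusted p = 0.000391). In βTC6 cells and in islets 1 of the 2 arrays was at background and enters the fold at the floor. βTC6 cells and islets overlapped (adjusted p = 0.816), and islets were 2.77-fold lower than E15.5 pancreas (adjusted p = 0.000234).

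Gjb2 was the member that fell with Dox. Its level was 0.781 and 0.832 in Dox(+) EBs, against 1.33 and 1.70 in Dox(−) EBs. βTC6 cells had 0.919 and 0.671, islets 1.23 and 1.14, and E15.5 pancreas 1.88 and 1.98. Both Dox(+) arrays lay under both Dox(−) arrays, and the gene was 1.86-fold lower with Dox (log2 difference -0.90, SE 0.18, adjusted p = 0.00193). In decreasing order the groups ran E15.5 pancreas, Dox(−) EBs, islets, Dox(+) EBs and βTC6 cells. Dox(−) EBs did not pass the test against E15.5 pancreas (adjusted p = 0.101) or islets (adjusted p = 0.103). Both passed without the first or second βTC6 array (adjusted p = 0.0459 and 0.0449 against E15.5 pancreas, 0.0481 and 0.0471 against islets), and the second also without the first Dox(−) array (adjusted p = 0.046). Dox(+) EBs overlapped βTC6 cells (adjusted p = 0.889). Dox(+) EBs were 2.39-fold lower than E15.5 pancreas (adjusted p = 0.000113) and 1.47-fold lower than islets (adjusted p = 0.0163, lost without either the first Dox(+) array, adjusted p = 0.084, or the first islet array, adjusted p = 0.0886). Islets were 1.63-fold lower than E15.5 pancreas (adjusted p = 0.0046). βTC6 cells were 1.51-fold lower than islets (adjusted p = 0.0119), a call lost without the second βTC6 array (adjusted p = 0.0863) or the first islet array (adjusted p = 0.0713).

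The Gjb1 probe was masked on all 4 EB arrays, so nothing can be said of it in EBs. βTC6 cells had 1.19 and 1.37, islets 0.766 and 0.750, and E15.5 pancreas 1.46 and 1.49, and islets lay under both other groups. βTC6 cells were 1.68-fold higher than islets (log2 difference 0.75, SE 0.14, adjusted p = 0.00126), and islets were 1.94-fold lower than E15.5 pancreas (log2 difference -0.96, SE 0.14, adjusted p = 0.000303). βTC6 cells and E15.5 pancreas did not pass the test against each other (adjusted p = 0.224).

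Gjb5 was low in most groups and highest in E15.5 pancreas. In Dox(+) EBs 1 spot was marked contaminated or irregular and left out, and the other read 0.476, against 0.414 and 0.669 in Dox(−) EBs. βTC6 cells had 0.180, at background, and 0.621, islets 0.307 and 0.288, and E15.5 pancreas 1.13 and 1.12. The single Dox(+) value lay between the Dox(−) values (log2 difference -0.15, SE 0.44, adjusted p = 0.852), and the βTC6 arrays overlapped both EB groups. Both E15.5 arrays were above every other array. Islets were 3.78-fold lower than E15.5 pancreas (adjusted p = 0.000976), Dox(−) EBs 2.14-fold lower (adjusted p = 0.0243) and Dox(+) EBs 2.36-fold lower (adjusted p = 0.033). This last call rests on 1 Dox(+) array and held in 4 of 9 fits that each left out 1 array, with adjusted p between 0.00336 and 0.101. It was 0.0514 without the first Dox(+) array, which holds no Gjb5 value, 0.0609 without either islet array, and 0.101 and 0.0977 without the first and second E15.5 array. Dox(+) EBs against islets were not called (adjusted p = 0.196), but were without the first or second βTC6 array (adjusted p = 0.049 and 0.0486). βTC6 cells against islets were not called (adjusted p = 0.285), but were without the first βTC6 array (log2 difference 1.06, adjusted p = 0.00737), which leaves 1 βTC6 array. Dox(+) EBs against βTC6 cells were not called (adjusted p = 0.704) and passed without the second βTC6 array (adjusted p = 0.0471), but that sets 1 array against 1 at background and no difference is read from it.

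The vascular connexins differed at most 1.92-fold between any of the groups. Gja4 had 3.87 and 3.01 in Dox(+) EBs, against 3.71 and 3.37 in Dox(−) EBs, and the groups overlapped (log2 difference -0.05, SE 0.16, adjusted p = 0.859). βTC6 cells had 2.27 and 1.94, islets 2.50 and 2.51, and E15.5 pancreas 3.55 and 4.56. Dox(+) EBs were 1.63-fold higher than βTC6 cells (adjusted p = 0.00279) and 1.36-fold higher than islets (adjusted p = 0.0283). The second of these calls was lost without the first Dox(+) array (adjusted p = 0.232) or without either islet array (adjusted p = 0.0979 and 0.094). Islets were 1.61-fold lower than E15.5 pancreas (adjusted p = 0.00307), and neither EB group was called against E15.5 pancreas (adjusted p = 0.223 for Dox(+) EBs and 0.343 for Dox(−) EBs).

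Gja5, read by a probe to an expressed sequence tag, did not separate the EB groups. Dox(+) EBs had 1.36 and 1.26, against 1.20 and 1.29 in Dox(−) EBs, with overlap (log2 difference 0.08, SE 0.16, adjusted p = 0.775). βTC6 cells had 1.57 and 1.17, islets 0.947 and 0.821, and E15.5 pancreas 1.04 and 1.19. Islets were the lowest group, and no 2 neighbours in the order differed (adjusted p between 0.101 and 0.848). Of these, islets against E15.5 pancreas (0.101) passed without the first or second βTC6 array (0.0463 and 0.0452). Across wider gaps Dox(+) EBs were 1.49-fold higher than islets (adjusted p = 0.0102) and βTC6 cells 1.53-fold higher than islets (adjusted p = 0.0068). The first was lost without the first Dox(+) array (adjusted p = 0.0634) or the second islet array (adjusted p = 0.0751), and the second without the first βTC6 array (adjusted p = 0.0503) or the second islet array (adjusted p = 0.0565).

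**Figure D2:**
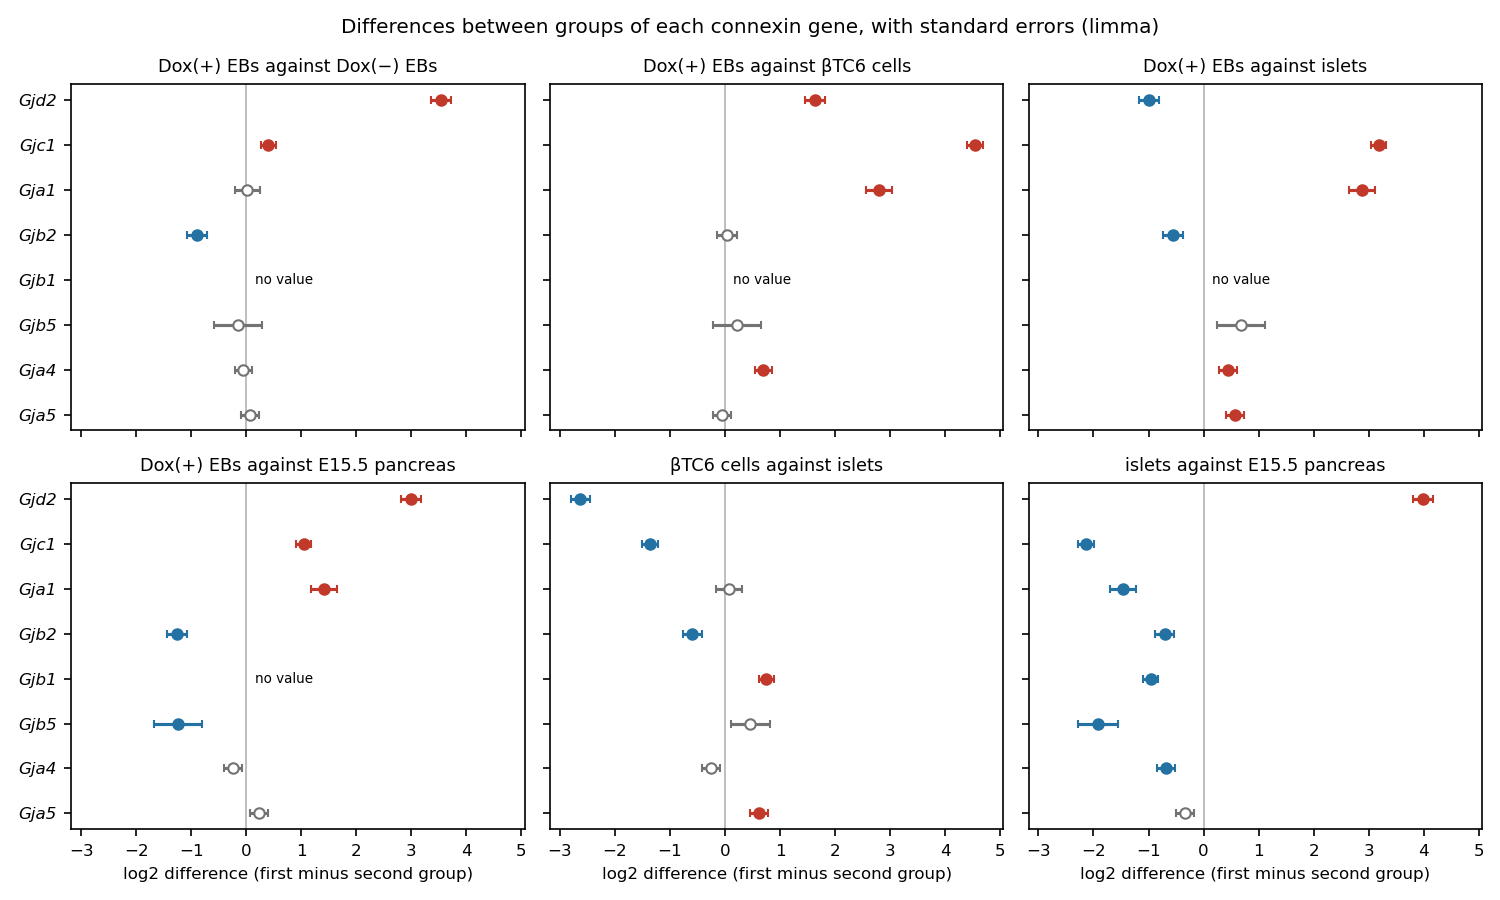
log2 difference of each connexin gene (first group minus second, from limma, bars are standard errors) in 6 comparisons. Red points were called higher, blue points lower and open grey points were not called. Gjb1 has no value in comparisons with EBs. Gjd2 lies far right of 0 with Dox (3.54) and Gjc1 far right against βTC6 cells (4.55).

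Counted together, 3 of the 7 genes tested with Dox were called, Gjd2 and Gjc1 higher and Gjb2 lower, against 43.2% of all probes tested in that comparison (20.7% higher and 22.5% lower). The members' median log2 difference was 0.02 and that of all probes -0.03, so as a family they were close to the background. Against βTC6 cells, 4 of 7 were called in Dox(+) EBs, all higher, where 62.9% of all probes were called, 25.5% higher and 37.5% lower. Against islets, 4 were higher and 2 lower of 7, where 68.0% of all probes were called, 36.4% higher and 31.6% lower. Against E15.5 pancreas, 3 were higher and 2 lower of 7, where 60.0% were called, 33.0% higher and 26.9% lower. These comparisons share the Dox(+) arrays.

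In Dox(−) EBs against βTC6 cells, Gja1, Gja4, Gjb2 and Gjc1 were higher and Gjd2 lower of 7 genes tested, where 66.6% of all probes were called, 28.7% higher and 37.9% lower. Against islets, Gja1, Gja4, Gja5 and Gjc1 were higher in Dox(−) EBs and Gjd2 lower, where 69.9% of all probes were called, 37.6% higher and 32.3% lower. Against E15.5 pancreas, Gja1 and Gjc1 were higher in Dox(−) EBs and Gjd2 and Gjb5 lower, where 58.5% were called, 33.6% higher and 24.8% lower. In βTC6 cells against E15.5 pancreas, Gjd2 was higher and Gja1, Gja4, Gjb2, Gjb5 and Gjc1 lower of 8 genes tested, where 65.6% were called, 41.8% higher and 23.8% lower. Several of these calls rest on single arrays. Against islets, Gja4 was lost without the first Dox(−) array or either islet array (adjusted p = 0.0939, 0.0674 and 0.0647) and Gja5 without the second Dox(−) or the second islet array (adjusted p = 0.0898 and 0.123). Gjb5 passed there without either βTC6 array (adjusted p = 0.00824 and 0.00816) or the first Dox(−) array (adjusted p = 0.0383). Against E15.5 pancreas, Gjb5 was lost without the first Dox(−) array (adjusted p = 0.174) or either E15.5 array (adjusted p = 0.0992 and 0.0943). Without the second βTC6 array, Gja5 passed in βTC6 cells against E15.5 pancreas (adjusted p = 0.0204), and Gjb5 in Dox(−) EBs against βTC6 cells (adjusted p = 0.0119), where the comparison is with 1 array at background.

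In βTC6 cells against islets, 2 members were higher (Gjb1 and Gja5) and 3 lower (Gjd2, Gjc1 and Gjb2) of 8, where 66.1% of all probes were called, 39.1% higher and 27.0% lower. In islets against E15.5 pancreas, 1 was higher (Gjd2) and 6 lower of 8, where 65.0% were called, 32.4% higher and 32.5% lower. The members' median difference there was -0.83 and that of all probes 0.00. The only gene higher in islets was Gjd2, 15.9-fold (log2 difference 3.99, SE 0.18, adjusted p = 1.28e-08), and Gja5 was the gene not called (adjusted p = 0.101). Gjd2 was also 6.17-fold lower in βTC6 cells than in islets (adjusted p = 3.15e-07). In comparisons with βTC6 cells the median of all probes was shifted, by -0.11 in Dox(+) EBs against βTC6 cells, 0.12 in βTC6 cells against islets and 0.21 in βTC6 cells against E15.5 pancreas. Quantile normalisation set the first and second to 0.00 and the third to 0.05. Of all probes called, the share that was higher was 40.5% in Dox(+) EBs against βTC6 cells, and 49.5% under quantile normalisation. It was 59.2% and 50.8% in βTC6 cells against islets, and 63.7% and 53.2% in βTC6 cells against E15.5 pancreas. The background's direction thus depended on the scaling, while quantile normalisation called the same numbers of members in each direction.

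**Figure D3:**
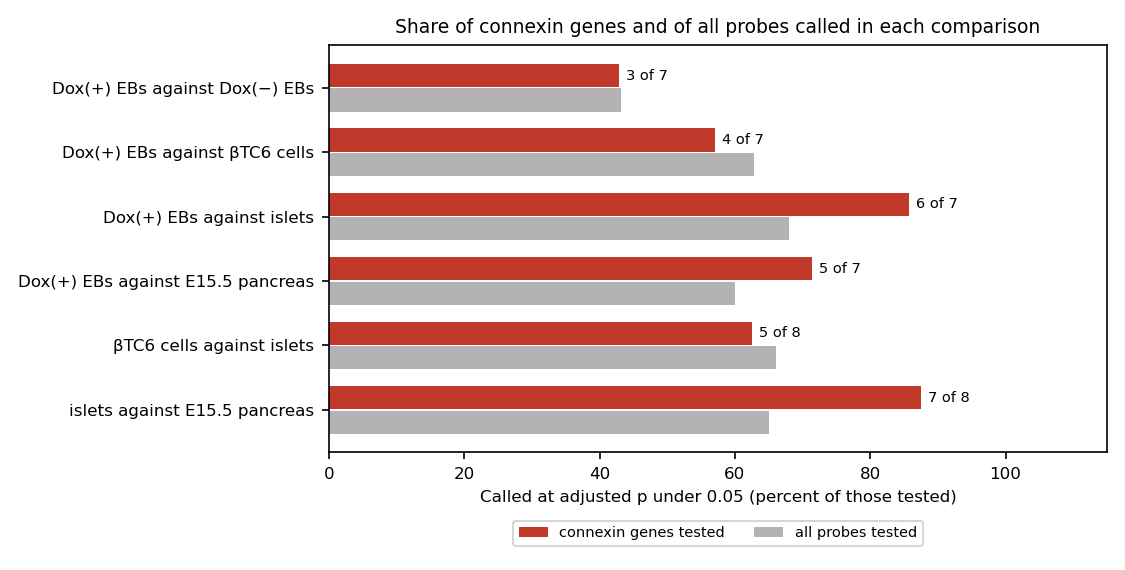
Share of the connexin genes tested (red) and of all probes tested (grey) that were called in either direction by limma at adjusted p under 0.05, in percent, in 6 comparisons. Numbers beside the red bars are genes called of genes tested. The red and grey bars are about level with Dox, at 42.9% and 43.2%.

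Marker genes of other cell types moved with several of these results. Summed levels of 13 endocrine markers were 571 to 647.4 in Dox(+) EBs, against 7.73 to 7.81 in Dox(−) EBs, where Chgb, Resp18, Pax6, Insm1 and Sst were at background, and all 13 were higher with Dox. They were 1613 to 1647 in βTC6 cells, 1546 to 2011 in islets and 193 to 200.1 in E15.5 pancreas. In islets 5 of these markers were saturated, and Gcg was left out on 1 array, which gave the lower sum. Summed levels of 12 neuronal markers were 204 to 245 in Dox(+) EBs, against 4.44 to 5.04 in Dox(−) EBs, with 9 at background there, and all 12 were higher with Dox. They were 344 to 392.1 in βTC6 cells, 91.0 to 91.3 in islets and 23.4 to 27.1 in E15.5 pancreas, where Tubb3 and Syt1 were left out on 1 array. Gjd2 was thus at background where both lists were lowest. The highest group was islets for Gjd2 and βTC6 cells for the neuronal markers. Against βTC6 cells, Dox(+) EBs had lower levels of all 13 endocrine markers (median log2 difference -1.55) but more Gjd2. For 9 markers of mature beta cells the sums were 18.9 to 20.5 in Dox(+) EBs, against 15.25 to 17.2 in Dox(−) EBs. They were 314 to 344 in βTC6 cells, 591 to 659 in islets and 61.0 to 63.9 in E15.5 pancreas. Like Gjd2, the mature beta cell sum was lowest in Dox(−) EBs and highest in islets. Unlike Gjd2, its Dox(+) values lay under those of βTC6 cells and of E15.5 pancreas. What part the markers of these lists have in the Gjd2 difference was not tested. In these bulk samples, fewer cells of a type and less RNA per cell cannot be told apart.

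Between the EB groups, epithelial and liver markers moved in the direction of Gjb2. Of 8 epithelial markers all were lower with Dox, with sums of 142 to 171 in Dox(+) EBs, against 463 to 489 in Dox(−) EBs, and 15.4 to 20.9 in βTC6 cells, 105 to 111 in islets and 270.0 to 285 in E15.5 pancreas. Of 12 hepatocyte markers 10 were lower and 2 higher, with sums of 59.6 to 70.5 in Dox(+) EBs, against 559 to 562 in Dox(−) EBs, and 22.9 to 24.8 in βTC6 cells, 32.6 to 35.5 in islets and 117 to 118 in E15.5 pancreas. Gjb2 was highest in E15.5 pancreas, while both sums were highest in Dox(−) EBs. Gjb2 also read higher in islets than in Dox(+) EBs, while both sums were lower in islets. Of 7 duct markers 4 were lower with Dox and 3 not called. Their sums were 46.1 to 47.2 in Dox(+) EBs, against 137 to 140.1 in Dox(−) EBs. They were 46.2 to 67.9 in βTC6 cells, 108 to 121 in islets and 172 to 173 in E15.5 pancreas. The part of these markers in the Gjb2 difference was not tested.

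Mesenchymal markers summed to 331 to 341 in Dox(+) EBs, against 786 to 828 in Dox(−) EBs, with 6 of 10 lower and 2 higher. The sums were 5.34 to 5.84 in βTC6 cells, where Col1a1, Col1a2, Col3a1, Dcn, Lum and Prrx1 were at background, 83.2 to 83.7 in islets and 532 in E15.5 pancreas. Gjc1 and Gja1 were low where these sums were low, in βTC6 cells and islets, but neither was lower in Dox(+) EBs. Of 7 smooth muscle markers 6 were lower with Dox, with sums of 25.9 to 32.1 in Dox(+) EBs, against 81.0 to 109.7 in Dox(−) EBs, and 6.88 to 9.68 in βTC6 cells, 15.54 to 15.70 in islets and 48.8 to 52.2 in E15.5 pancreas. Of the smooth muscle markers, Smtn was missing on 1 Dox(−) array. Heart muscle markers summed to 12.6 to 13.2 in Dox(+) EBs, against 145 to 204 in Dox(−) EBs, and all 8 tested were lower. Their sums were 4.39 to 5.435 in βTC6 cells, where Ttn was missing on 1 array, 5.945 to 6.558 in islets and 11.44 to 12.37 in E15.5 pancreas. Acinar markers summed to 2135 to 2434 in islets, against 1234 to 1260 in E15.5 pancreas, so acinar RNA was present in the islet samples. In islets 9 of the 11 acinar markers were saturated on at least 1 array and Cpb1 and Cela2a were each missing on 1, and in E15.5 pancreas 3 were saturated, so these sums are not exact and their order is not read. Gjb1 and Gjb2 were lower in islets than in E15.5 pancreas. Endothelial markers were at 69.6 to 73.3 in Dox(+) EBs, against 63.3 to 65.9 in Dox(−) EBs, 9.95 to 12.5 in βTC6 cells, 71.4 to 74.3 in islets and 80.5 to 84.3 in E15.5 pancreas. Gja4 read 1.94 or more in every group, also in βTC6 cells, where 8 of 12 endothelial markers were at background, Pecam1 and Cdh5 among them. The part of these markers in the Gjc1, Gja1, Gjb1 and Gja4 differences was not tested.

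**Figure D4:**
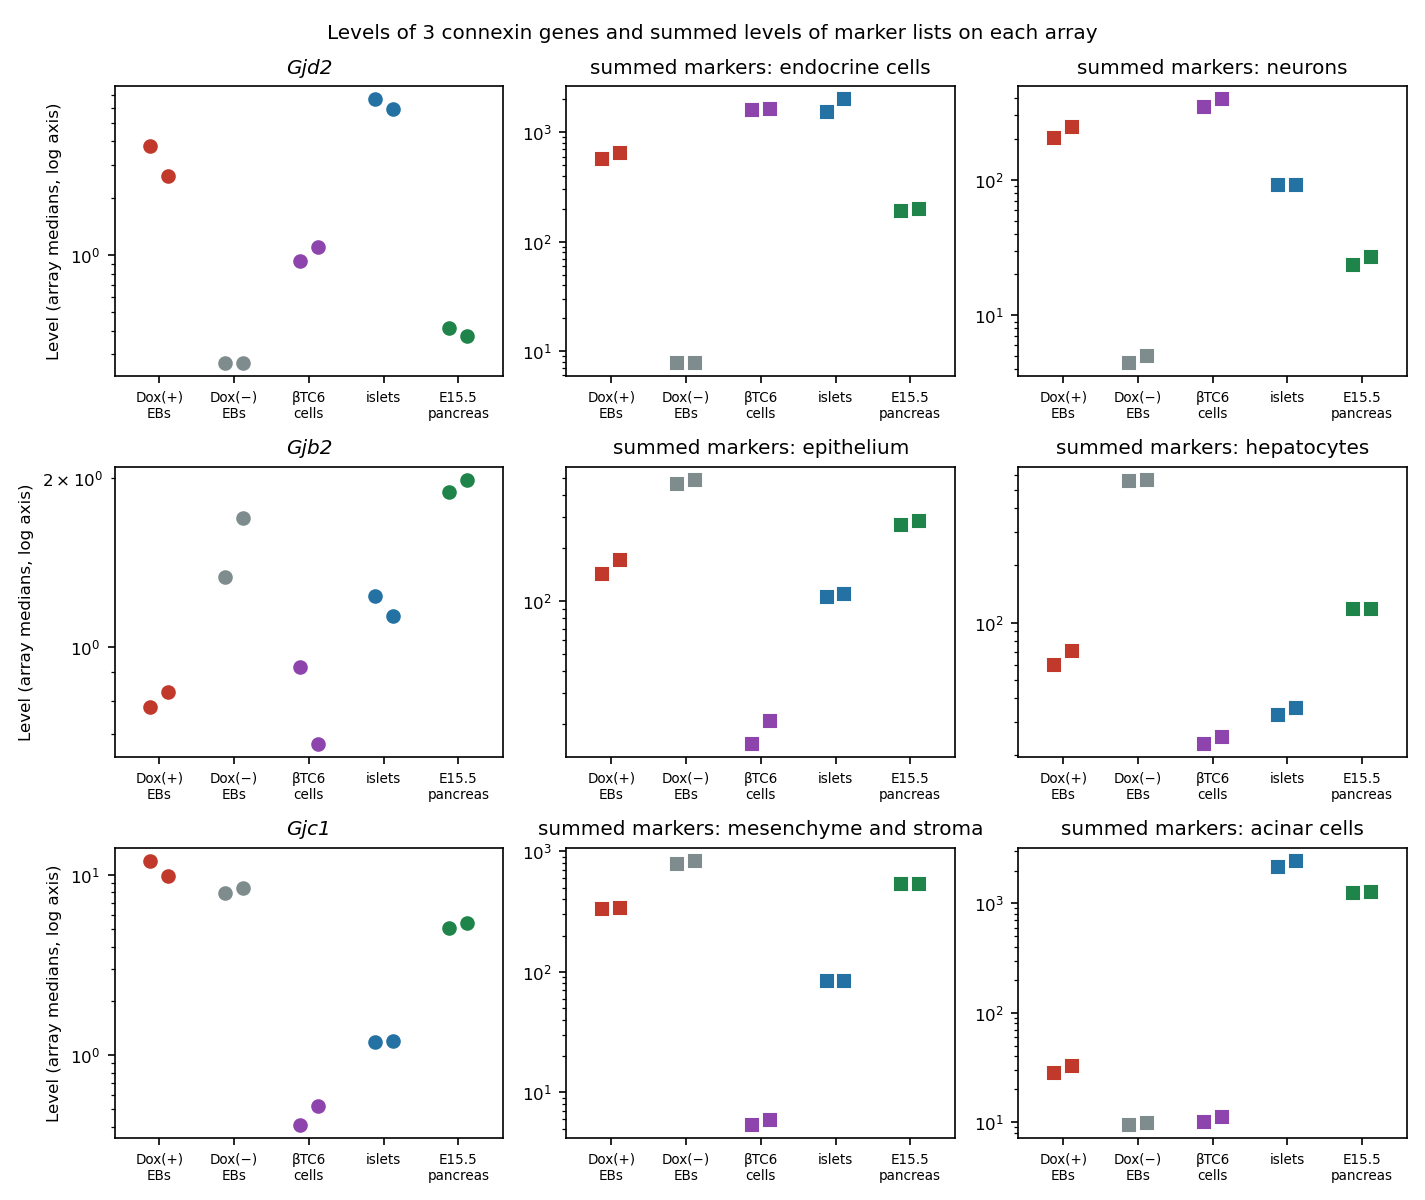
Levels of Gjd2, Gjb2 and Gjc1 (circles, floored at 0.27) and summed levels of marker lists (squares, the lower and the higher array of a group) in the 5 groups, all in array medians on log axes. Gjd2 and the endocrine and neuronal sums are all lowest in Dox(−) EBs, and the mesenchymal sum is lower in Dox(+) than in Dox(−) EBs while Gjc1 is not.

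Of 12 other connexin genes, 6 had a probe and 4 were tested. With Dox, 1 was lower (Gja3) and 3 were not called, with a median log2 difference of 0.14. Gja3, a lens connexin, lies next to Gjb2 on chromosome 14 (GRCm38.p6), and its probe to the reference transcript read 1.11 and 1.22 in Dox(+) EBs, against 2.32 and 2.57 in Dox(−) EBs, without overlap (log2 difference -1.07, SE 0.17, adjusted p = 0.000569). A second Gja3 probe, to an expressed sequence tag, differed by -0.55 (SE 0.09, adjusted p = 0.000446) and was saturated in islets, at 253 and 229, where the first probe read 1.70 and 1.85. The probes thus disagreed on the order of groups, and the first was highest in Dox(−) EBs. Gja6, an X-linked rodent connexin, read 1.80 and 1.74 in Dox(+) EBs, against 1.62 and 1.33 in Dox(−) EBs (adjusted p = 0.345), and 4.55 and 5.70 in islets, against 1.18 and 0.784 in E15.5 pancreas (log2 difference 2.41, adjusted p = 2.34e-06). Gjd3 read 0.377 and 0.357 in Dox(+) EBs and was at background in Dox(−) EBs, islets and E15.5 pancreas (adjusted p = 0.122 with Dox). Gjd4 read 0.390 to 0.753 over all arrays and was not called with Dox (adjusted p = 1.0). Gje1 was at background on all 10 arrays and Gjc3 on all but 1 βTC6 array.

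The pannexins, which form channels related in shape to hemichannels, split with Dox into 1 higher, 1 lower and 1 not called. Panx1 read 21.6 and 19.5 in Dox(+) EBs, against 15.8 and 13.3 in Dox(−) EBs (log2 difference 0.50, SE 0.11, adjusted p = 0.00359), and was lowest in islets, at 3.02 and 2.72. Panx2, known from brain, read 0.383 and 0.347 in Dox(+) EBs, against 0.920 and 0.707 in Dox(−) EBs (log2 difference -1.15, SE 0.20, adjusted p = 0.000955). By 1 probe Panx3 read 0.787 and 0.695 in Dox(+) EBs, against 0.718 and 0.966 in Dox(−) EBs, with overlap (adjusted p = 0.679). Its other probe read 0.253, at background, and 0.326 in Dox(+) EBs, against 0.391 and 0.413 in Dox(−) EBs. By that probe the groups did not overlap but were not called (log2 difference -0.44, adjusted p = 0.088).

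Among 19 listed partners of gap junctions and genes of their turnover, 13 were tested with Dox, of which 4 were higher, 5 lower and 4 not called, with a median log2 difference of -0.16. The smallest adjusted p-values were those of Tjp3, Cav1, Cnst and Eps15. Tjp3, a tight junction scaffold, read 0.514 and 0.493 in Dox(+) EBs, against 1.69 and 1.91 in Dox(−) EBs (log2 difference -1.84, adjusted p = 9.11e-07). Cav1, the caveolar coat protein, read 9.07 and 11.5 in Dox(+) EBs, against 2.97 and 3.41 in Dox(−) EBs (log2 difference 1.68, adjusted p = 1.59e-05). Cnst, which encodes consortin, a receptor for connexins on their way to the membrane, read 10.9 and 9.90 in Dox(+) EBs, against 5.04 and 5.24 in Dox(−) EBs (log2 difference 1.01, adjusted p = 4e-05). Eps15, an endocytic adaptor, was 1.50-fold higher (adjusted p = 0.00126). Tjp1, the scaffold that binds the tails of several connexins, was 1.45-fold lower in Dox(+) EBs (adjusted p = 0.00369), at 31.8 and 31.0 against 45.9 and 44.9 in Dox(−) EBs.

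On chromosome 14 Gjb2 lies between Gja3 and Gjb6. Gjd2, on chromosome 2, lies in a stretch with Scg5, which encodes a secretory granule chaperone, and Actc1, the cardiac actin. Scg5 read 34.6 and 29.7 in Dox(+) EBs, against 0.427 and 0.364 in Dox(−) EBs (log2 difference 6.35, adjusted p = 2.25e-10), and Actc1 read 4.21 and 4.68 in Dox(+) EBs, against 51.3 and 73.5 in Dox(−) EBs (log2 difference -3.79, adjusted p = 2.35e-08). Actc1 is the next gene after Gjd2 and Scg5 the next but one on the other side, beyond Arhgap11a, and they differed in opposite directions.

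The genes with the most similar pattern were taken as the 4 with the highest Pearson correlation of log2 levels with each member, among 14895 genes with values on all 10 arrays, or, where the member itself has fewer, on the arrays where it was measured (14955 genes for Gjb5 and 15245 for Gjb1). The arrays fall into 5 pairs, so these correlations mostly follow the group means. For Gjd2 they were Ptprr, Syn2, Ttc30b and Prkacb (r = 0.981 to 0.993), and for Gjc1 Nrep, Snx20, Mfap2 and Rai14 (r = 0.989 to 0.995). For Gja1 they were Chsy1, Mcl1, Has2 and Gria1 (r = 0.989 to 0.992), and for Gjb2 Pld4, Krt23, Ccl9 and Trim47 (r = 0.954 to 0.973). Gja4 went with Shroom4, Pgpep1, Hif3a and Marchf1 (r = 0.934 to 0.943), and Gja5 with Smchd1, Slf2, Kat6a and Trim33 (r = 0.944 to 0.970). Gjb5, over 9 arrays, went with Gm14207, Plbd2, Cyp2d26 and Ddr2 (r = 0.960 to 0.966), and Gjb1, over 6 arrays of 3 groups, with Smtn, Ntan1, Nle1 and Akr1b8 (r = 0.999).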

How the data were processed

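The deposited intensities came from 1-colour CodeLink arrays. Per the file headers, CodeLink Expression Analysis 4.1.0.29054 took each spot mean, subtracted the local background median and divided by the array median, and this scaled intensity was used. The study's own removal of invalid probes, and its use of GeneSpring, were not repeated. The members and gene lists were chosen with earlier results of these data known. Masked, contaminated and irregular spots were set missing, saturated spots were kept, and 1260 control spots were left out. Levels were floored at 0.27 and taken as log2. Probes above background in both samples of 1 group or more were tested (28193 with Dox) with limma 3.58.1 in R 4.3.3, with 1 mean per group over 10 arrays, a trended and robust prior, and Benjamini-Hochberg adjustment within each of 10 pairwise comparisons. A fold against a group at background on both arrays is given as "at least", from the higher of the probe's own level and the lowest level among probes above background on each array. Of the discovery probes, 21615 carried 1 symbol, 681 several and 12671 none, by GEO's platform annotation, with symbols updated through RefSeq. Named genes were the 8 members, all other connexins and pannexins measured, up to 4 genes of smallest adjusted p in each other list (Tjp1, Scg5 and Actc1 were added after their values were seen), the 4 genes most similar in pattern to each member, and Pdx1, Neurog3 and Notch4. Marker genes were also named where they were at background or missing, and Gjb6 and Arhgap11a for their position. The pairing of replicate numbers was checked by the correlation of the differences between replicates (-0.071 to 0.065), which gave no pairing. The fit was tested on simulated data. With 2 arrays a group, the number of arrays limits the precision. Alternatives covered the normalisation, background correction, floor, filter, arrays in the fit, variance model, replicate block, spot flags and leaving out each array.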

Additional observations from a re-analysis of the deposited data

How the results depend on the processing

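Of 73 comparisons of a single member, 50 were called, and 31 of these kept their call and direction under every alternative that tested them. Alternatives for Dox(−) EBs against the 3 groups outside the EBs and for βTC6 cells against E15.5 pancreas were chosen after seeing the data. No called difference turned its sign. Calls among all probes also moved when 1 array was left out. With Dox, fewer probes were called without any 1 EB array, and more without either βTC6 array. The ranges of member counts below are therefore not read as particular to the connexins. Leaving out 1 array at a time, the number of members called with Dox was 2 to 3 (main value 3). In Dox(+) EBs it was 4 to 5 (main value 4) against βTC6 cells, 3 to 7 (main value 6) against islets and 4 to 5 (main value 5) against E15.5 pancreas. In Dox(−) EBs it was 5 to 6 (main value 5), 3 to 7 (main value 5) and 2 to 5 (main value 4) against the same groups. It was 4 to 5 (main value 5) in βTC6 cells against islets, 6 to 7 (main value 6) in βTC6 cells against E15.5 pancreas, and 7 to 8 (main value 7) in islets against E15.5 pancreas. Only 4 members, Gja4, Gja5, Gjb2 and Gjc1, were above background on all 10 arrays. None of them changed a call under that filter, so its lower counts come from the members no longer tested. Testing those alone called 2 in Dox(+) EBs against βTC6 cells and 2 against E15.5 pancreas, 3, 3 and 1 in Dox(−) EBs against βTC6 cells, islets and E15.5 pancreas, and 3 each in βTC6 cells against islets, βTC6 cells against E15.5 pancreas and islets against E15.5 pancreas. Of 18034 probes under that filter, 4571 were higher and 7969 lower in Dox(+) EBs against βTC6 cells, and 6783 and 4940 against E15.5 pancreas. In Dox(−) EBs they were 5338 and 7725, 7593 and 5829, and 7291 and 4326 against βTC6 cells, islets and E15.5 pancreas. In βTC6 cells they were 8470 and 4767 against islets, and 8948 and 3855 against E15.5 pancreas. For islets against E15.5 pancreas they were 6408 and 6241. A floor of 1 gave 3 members in Dox(+) EBs against islets, 3 in Dox(−) EBs against islets and 2 in βTC6 cells against islets. Calls among all probes fell with that floor too. In Dox(+) EBs against islets they went from 10248 higher and 8898 lower to 7501 and 6277 of 28165. In Dox(−) EBs against islets they went from 10603 and 9084 to 7869 and 6542 of 28163. In βTC6 cells against islets they went from 11037 and 7616 to 8509 and 5307 of 28219. A floor of 0.1 gave 3 in Dox(+) EBs and 2 in Dox(−) EBs against E15.5 pancreas, where no filter on background also gave 2 in Dox(−) EBs. For all probes that floor gave 8977 higher and 7385 lower of 28146 in Dox(+) EBs, against 9300 and 7576 at the main floor. In Dox(−) EBs it gave 9069 and 6960 of 28144, against 9469 and 6988. No filter gave 8368 and 6387 of 34799 there. The cause of the differences with the floors and without the filter was not tested. Against E15.5 pancreas, Gja1 lost its call with a floor of 0.1 in Dox(+) EBs (adjusted p = 0.0618) and in Dox(−) EBs (adjusted p = 0.0661). With a floor of 1, Gja1 lost its call against E15.5 pancreas in islets and in βTC6 cells (log2 difference 0.0 in each). In Dox(+) EBs against islets, no filter and a floor of 1 ended the calls of Gjb2 (adjusted p = 0.0513 and 0.158) and Gja4 (0.089 and 0.092). The floor of 1 also ended the call of Gja5 there (adjusted p = 0.0781). In βTC6 cells against islets it ended those of Gja5 and Gjb2 (adjusted p = 0.0543 and 0.158). In Dox(−) EBs against islets it ended those of Gja4 and Gja5 (adjusted p = 0.0629 and 0.14), and no filter that of Gja4 (0.0625). Gjc1 with Dox was not called without the filter on background (adjusted p = 0.0957), without the trend and robust prior (adjusted p = 0.0515) or with the replicate block (adjusted p = 0.0548). The replicate block left 2 members called with Dox and let Gjb5 pass in Dox(−) EBs against islets (adjusted p = 0.0431), changed no other call of a member, and the replicate numbers gave no sign of pairing the samples. Each member has 1 probe, so the alternative of using another probe was not run. Low signal limits Gjb5, Gja1 in βTC6 cells and islets, and Gjd2 in Dox(−) EBs, where only a bound is known.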

Other observations

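Adherens junction and desmosome genes, which hold together the membranes that gap junctions join, changed with Dox in both directions. Of 8 genes tested, 2 were higher, 5 lower and 1 not called by limma, with a median log2 difference of -0.66. Cdh2 (N-cadherin) read 12.0 and 9.65 in Dox(+) EBs, against 2.61 and 2.96 in Dox(−) EBs (log2 difference 1.95, adjusted p = 1.99e-06), and 12.8 and 11.7 in islets, against 1.46 and 1.13 in E15.5 pancreas. Cdh1 (E-cadherin) read 25.0 and 20.3 in Dox(+) EBs, against 44.9 and 48.4 in Dox(−) EBs (log2 difference -1.05, adjusted p = 0.000147), and was not called in islets against E15.5 pancreas (adjusted p = 0.374). Dsp, a desmosomal plaque protein, read 6.80 and 5.86 in Dox(+) EBs, against 31.5 and 36.1 in Dox(−) EBs (log2 difference -2.42, adjusted p = 2.49e-07), and was at background in βTC6 cells. Pkp2, another plaque protein, was 3.54-fold lower with Dox (adjusted p = 3.49e-06). In βTC6 cells all 8 genes of the list were lower than in islets.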
